A study of Mus musculus with 13 samples.

Results

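The SLC25 genes encode the mitochondrial carriers, a family of small membrane proteins, most of which sit in the inner mitochondrial membrane. Each carrier moves a class of substrate between cytosol and matrix, among them ADP and ATP, phosphate, citrate and malate, amino acids, iron, glutathione and the precursors of coenzymes. SLC25A39 and its close relative SLC25A40 carry glutathione into mitochondria, where it protects iron-sulfur proteins and buffers oxidative stress. The table of the series lists 47 genes named Slc25a and a number, and the 44 with a value in all 13 tumors are the members described here, of 16687 genes with a value in all tumors. Slc25a40 was set against the other members because of its difference between the 2 tumor models, so its values are given as a description without a test.

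Bulk RNA sequencing of poly(A) RNA compared 2 mouse models of basal cell carcinoma (BCC), a Hedgehog-driven skin tumor, in female mice, with 1 library per tumor. The 9 GEM-BCC tumors grew in the dermis of 7 mice of the genotype Ptch1+/- K14-CreER2 p53fl/fl, in which 3 doses of 300 µg tamoxifen activate Cre in keratin 14-expressing cells and 4 Gy of X-rays was given once. The 4 Tp-BCC tumors grew under the skin of the flank of 4 Ptch1+/-p53fl/fl mice after injection of 2000000 tumor cells, without tamoxifen or X-rays to the recipients. The Tp-BCC line descends from a single GEM-BCC tumor, so the 4 Tp-BCC tumors represent 1 tumor lineage, and both models share the Ptch1+/- and floxed p53 background. The ages of the mice are not given in the sources used here. A single mouse carried both GEM2 and GEM3, and another both GEM7 and GEM8. All GEM-BCC libraries are labelled batch 1 and all Tp-BCC libraries batch 2, so the models and the batches cannot be told apart.

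Libraries held 28075317 to 32629102 expected counts for GEM-BCC tumors and 15388027 to 17494912 for Tp-BCC tumors. Basal keratinocyte markers were detected in every tumor, with summed levels of 11267 to 17293 CPM (counts scaled to a library of 1000000) in GEM-BCC and of 8094 to 20141 CPM in Tp-BCC. Of the altered genes, Ptch1 had 158 to 462 CPM in GEM-BCC and 61 to 187 CPM in Tp-BCC, and the floxed Trp53 had 29.9 to 61.7 and 19.8 to 30.4 CPM. Counts over a whole gene do not measure either deletion. Markers of some other cells differed between the models, and their part in the results was not tested. All 5 tested adipocyte markers (8 listed) were higher in Tp-BCC, with sums of 0.791 to 5.39 CPM against 17.5 to 253 CPM. The Tp-BCC median was 24.7 CPM, and the highest sum was that of TP2. The 4 Tp-BCC tumors alone can carry a gene past the count filter. A marker near the floor in GEM-BCC is thus tested only if it is high in Tp-BCC, so the 5 are no independent count. Of 6 endothelial markers 4 were higher, with sums of 103 to 243 against 305 to 410 CPM. Skeletal muscle markers had sums of 4.35 to 9.99 CPM in GEM-BCC and of 2.18 to 162 CPM in Tp-BCC. The Tp-BCC median of 8.95 CPM lay within the GEM-BCC range, the highest sum was that of TP4, and 1 of 5 tested was higher. Of 3 tested erythroid markers (6 listed), 2 were lower in Tp-BCC, with sums of 30.7 to 320 against 39.1 to 117 CPM. The listed Hbb-bs and Hbb-bt are not in these sums, for lack of a value in some tumors. Hbb-bs had 288 to 560 counts in Tp-BCC and no value in GEM-BCC. Hbb-b1, which was not listed, had 614 to 6343.62 counts in GEM-BCC and no value in Tp-BCC. Of 7 macrophage markers 1 was higher, and of 6 fibroblast markers 1 was higher and 1 lower. Over all genes 11.1% were higher and 8.35% lower. In bulk tumors fewer cells of a type and less RNA per cell cannot be told apart.

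Slc25a40, a mitochondrial glutathione carrier, was the member that separated the models. Its level in GEM-BCC tumors ran from 8.58 to 16.6 CPM with a median of 11.2 CPM. In Tp-BCC it was 1020 CPM in TP1, 391 in TP2, 990 in TP3 and 211 in TP4. The ranges of the models did not overlap, and the lowest Tp-BCC tumor lay far above the highest GEM-BCC tumor. The mean was 11.7 ± 2.65 CPM (SD, n = 9) in GEM-BCC and 653 ± 413 CPM (n = 4) in Tp-BCC, a log2 fold change of 5.80 (SE 0.34), or 55.6-fold. With 1 tumor left out at a time the log2 fold change stayed between 5.50 and 6.07. It ranked 29 among all 14390 tested genes in log2 fold change.

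**Figure D1:**
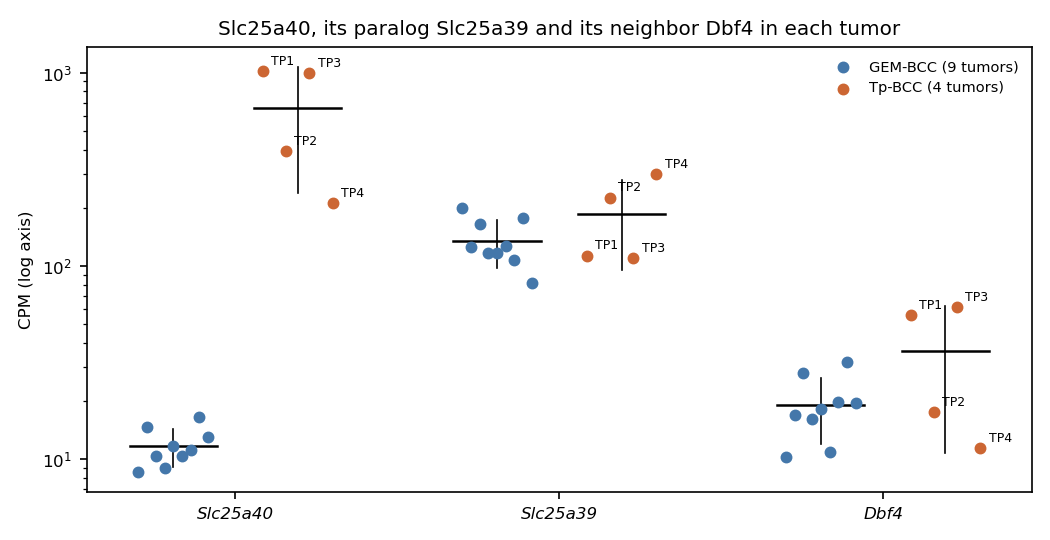
Levels of Slc25a40, of its paralog Slc25a39 and of the adjacent gene Dbf4 in each tumor, in CPM on a log axis, with the mean (horizontal line) and SD (vertical line) of 9 GEM-BCC (blue) and 4 Tp-BCC tumors (orange). Slc25a40 lies between 8.58 and 16.6 CPM in GEM-BCC and between 211 and 1020 CPM in Tp-BCC, while the ranges of the models overlap for the other genes.

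The place of Slc25a40 within the family changed accordingly. Ranked by mean CPM per kilobase of transcript, it was number 30 of 44 members in GEM-BCC, at 4.51 CPM per kilobase. In Tp-BCC it was number 3, at 251 CPM per kilobase. The length of a gene was the median over its GENCODE vM21 protein-coding transcripts, 2602 bases for Slc25a40 and 734 for Slc25a39. Which transcripts the tumors used was not tested, so the ranks hold only for these lengths. Slc25a39 stood next to Slc25a40 in Tp-BCC at 254 CPM per kilobase, and Slc25a5 above both at 482 CPM per kilobase. These are means over unlike tumors. Slc25a40 and Slc25a39 had 1020 and 113 CPM in TP1, but 211 and 298 CPM in TP4. The share of Slc25a40 in the summed CPM of all 44 members was 0.38 to 0.746% in GEM-BCC tumors. In Tp-BCC the share was 30.7% in TP1, 11.9% in TP2, 31% in TP3 and 7.37% in TP4. Members other than Slc25a40 summed to 1810 to 2297 CPM in GEM-BCC and 2208 to 2897 CPM in Tp-BCC, so that without it the ranges overlapped.

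Slc25a39 carries the same substrate and did not show this pattern. It had 81.7 to 199 CPM in GEM-BCC (median 126) and 113, 226, 110 and 298 CPM in TP1 to TP4. The Tp-BCC values fell into a low pair within the GEM-BCC range and a high pair above it. The log2 fold change was 0.47 (SE 0.28, edgeR adjusted p = 0.258). It was −0.28 without TP2 and TP4 (adjusted p = 0.553) and 0.96 without TP1 and TP3 (adjusted p = 0.0127), so its direction depended on which pair was kept. The ratio of Slc25a40 to Slc25a39 in CPM was 0.0432 to 0.16 in GEM-BCC and 9.03, 1.73, 8.99 and 0.708 in TP1 to TP4.

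The counts of Slc25a40 were of a different kind in the 2 models. RSEM expected counts are fractional where reads fit more than 1 gene and are divided among them, and the counts of Slc25a40 were whole numbers in all 9 GEM-BCC tumors (261 to 521) but fractional in all 4 Tp-BCC tumors (17326.24, 6076.57, 16540.60 and 2953.11). With values within 0.005 of a whole number taken as whole, 109 of the 16687 genes were fractional in every Tp-BCC and no GEM-BCC tumor, whereas 1 gene had the reverse pattern and 15735 were whole in all tumors. Among the members, Slc25a37 also had this pattern, and its level did not separate the models. Of the 106 tested genes with the pattern, 12 were called higher in Tp-BCC (11.3%, against 2.36% of all tested genes), Cntn5 among them. The 12 include Slc25a40, which was chosen for its difference between the models, so its place among them is no result. Called lower were 3, and 5.57% of all tested genes were called in either direction. Calls required an adjusted p under 0.05 and a log2 fold change beyond ±2. A gene with few GEM-BCC reads can have whole counts there for that reason, such as Tuba3b with 0 to 1 counts. The pattern can thus favor genes higher in Tp-BCC, and the 2 shares are not comparable. The GENCODE vM21 transcripts of Slc25a40 share 2.25% of their 100-base words with the processed pseudogene Gm5066, which is not among the genes of the table. The genes that have values also differed by model, with 1932 genes listed in GEM-BCC alone, Ptprv with 9944 to 32164 counts among them, and 65 in Tp-BCC alone. What part these differences have in the level of Slc25a40 was not tested.

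Slc25a40 lies on mouse chromosome 5, head to head with Dbf4, which encodes the activator of the replication kinase Cdc7. In the RefSeq promoter table (GRCm38.p6) 121 bases separate the start of Dbf4, on the minus strand, from that of Slc25a40, on the plus strand. This stretch consists to 81% of G and C, against a median of 54.5% over the same length of 32851 promoters, and holds 22 CG pairs. It holds 2 GC boxes (GGGCGG, read on both strands), which 26.6% of promoters have in this length, and neither CCAAT (21.4%) nor TATAAA (6.39%). The 30 bases directly before the start given in that table are shown because they belong to the member that separated the models, and the capitals mark a GC box on the minus strand. RefSeq's gene table ends Dbf4 at 8422725 and begins Slc25a40 at 8422730. Most of the 121 bases, the printed ones included, thus lie within the span that the gene table gives to Slc25a40.
Slc25a40, before the start in the promoter table, chr5:8422808-8422837, plus strand: cgcgccccgcgggccCCGCCCccggatgct

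Neighboring genes were compared with Slc25a40, to see whether a longer stretch of the chromosome differed between the models. Dbf4 had 10.3 to 31.9 CPM in GEM-BCC (median 18.2) and 55.6, 17.5, 61.3 and 11.4 CPM in TP1 to TP4. TP1 and TP3 lay above all GEM-BCC tumors, and TP2 and TP4 lay within their range. Its log2 fold change was 0.93 (SE 0.40, edgeR adjusted p = 0.108), against 1.17 (adjusted p = 0.00213) once the trend with GC content was removed. It was 1.21 (adjusted p = 0.0431) without TP4, 1.61 (adjusted p = 0.00883) without TP2 and TP4 and −0.40 (adjusted p = 0.426) without TP1 and TP3. Of the 10 nearest genes on each side, 14 were tested and 0 had an adjusted p under 0.05 in edgeR, against 19.4% of all tested genes. At an unadjusted p under 0.05 there were 3, against 34.5% of all genes, and DESeq2 had 2 past the adjusted threshold, both lower.

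The nearest tested genes toward the centromeric side after Dbf4 were Adam22, a synaptic membrane protein (−0.71, SE 0.44), Sri, which encodes the calcium-binding protein sorcin (0.20, SE 0.19), the metalloreductase gene Steap4 (−0.56, SE 0.33) and Steap1 (−1.22, SE 0.94), given as log2 fold changes. On the other side came Rundc3b (−2.77, SE 1.08, at no more than 2.42 CPM in any tumor), the drug exporters Abcb1a (0.45, SE 0.54) and Abcb1b (0.34, SE 0.46), Crot, a peroxisomal carnitine transferase (−0.22, SE 0.45), and Tmem243 (0.12, SE 0.30). The log2 fold changes of the neighbors thus ranged from −2.87 (Elapor2, SE 1.12, at no more than 2.2 CPM in any tumor) to 0.93 (Dbf4). With the GC trend removed 2 of the 14 neighbors passed the threshold, both higher, as 15.1% of all genes were. They were Dbf4 and Sri (0.89, edgeR adjusted p = 0.0243). Without TP1 and TP3, where 23.8% of all genes were lower, 4 of the 14 neighbors passed the threshold, all lower, among them Crot (−2.12, adjusted p = 0.000666) and Adam22 (−2.16, adjusted p = 0.00234).

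**Figure D2:**
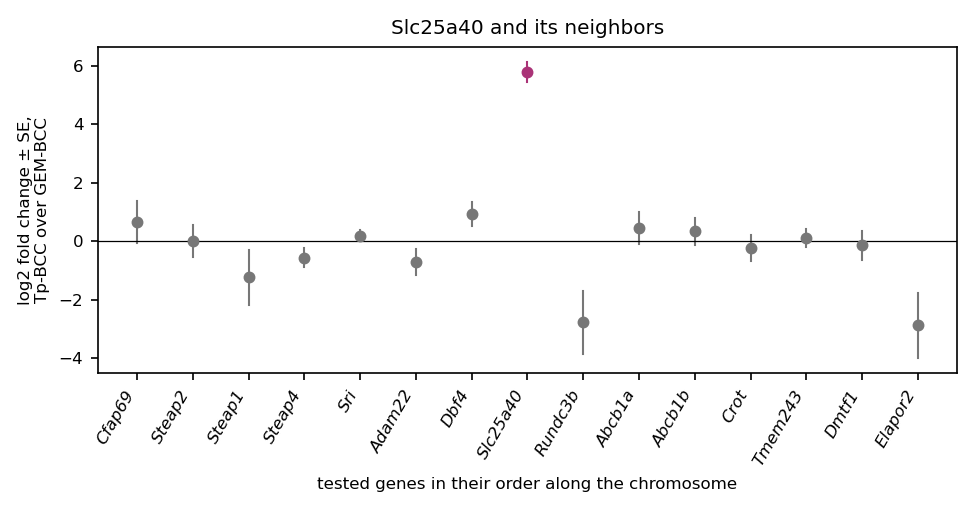
Log2 fold change of Tp-BCC over GEM-BCC (point) with its SE (line) for Slc25a40 and its 14 tested neighbors, in their order along the chromosome. Slc25a40 stands at 5.80 and its neighbors between −2.87 and 0.93.

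The genes outside the family whose log2 CPM followed Slc25a40 most closely over the 13 tumors were 4930467E23Rik (Pearson r = 0.994), Otx2 (0.992), Spaca6 (0.987), Cntn5 (0.984) and B3galt1 (0.984). These correlations are descriptions, since the points share the 2 models, their batches and the order among the Tp-BCC tumors. Slc25a40 was also chosen for its gap between the models. In GEM-BCC tumors 4930467E23Rik had 0 counts, B3galt1 at most 3 and Spaca6 at most 30. The correlations thus hold little about levels among the GEM-BCC tumors. Among the Tp-BCC tumors each of the 5 genes was highest in TP1 and TP3 and lowest in TP4. Cntn5, a neuronal cell adhesion gene, had at most 25 counts in a GEM-BCC tumor and 33912, 11062, 32849 and 3471 counts in TP1 to TP4. Otx2, a transcription factor of brain and eye development, had at most 1 count in a GEM-BCC tumor and 193, 120, 187 and 49 counts in TP1 to TP4.

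The rest of the family differed little between the models. Of the 41 members tested, 40 remain without Slc25a40, and 0 of these were called in edgeR at adjusted p < 0.05 with a log2 fold change beyond ±2, against 5.57% of all 14390 genes. DESeq2 also called 0. At an unadjusted p under 0.05, 6 were higher and 3 lower in Tp-BCC, while 34.5% of all genes passed that limit in either direction. At the adjusted p alone 3 members (7.5%) passed, against 19.4% of all genes: Slc25a10 and Slc25a25 were higher (11.1% of all genes were) and Slc25a33 lower (8.35%). The CPM ranges of the models overlapped in each of the 40, while 9.95% of all tested genes did not overlap. The 40 members had a median of 0.03 in log2 fold change, beside −0.03 for all tested genes, and they ran from −1.83 (Slc25a18) to 0.83 (Slc25a10).

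**Figure D3:**
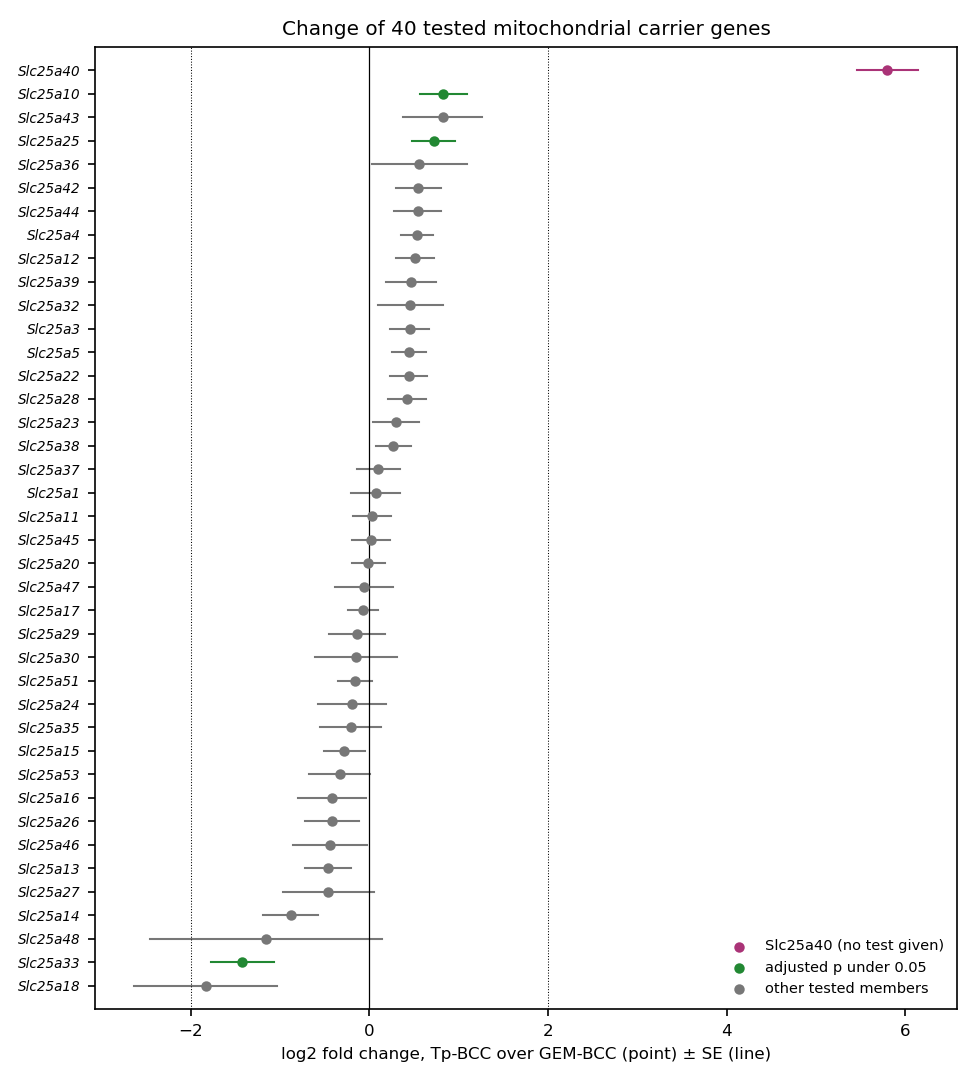
Log2 fold change of Tp-BCC over GEM-BCC (point) with its SE (line) for 40 of the 41 tested members, in order of size, with dotted lines at −2 and 2. Slc25a40 (purple) stands at 5.80, the 3 members with an adjusted p under 0.05 (green) at −1.42, 0.72 and 0.83, and the others (gray) between −1.83 and 0.82.

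Slc25a33, an inner membrane carrier of pyrimidine nucleotides, was the member that fell. It had 5.88 to 16 CPM in GEM-BCC (median 12.5) and 2.18, 5.21, 3.29 and 6.5 CPM in TP1 to TP4. TP1, TP2 and TP3 lay below every GEM-BCC tumor, and TP4 lay just above the lowest, GEM8. The log2 fold change was −1.42 (SE 0.35, edgeR adjusted p = 0.0114). It stayed past the adjusted threshold with each tumor left out in turn, with adjusted p-values of 0.00717 to 0.0356, and after removal of the GC trend (−1.62, adjusted p = 0.00192). Without TP1 and TP3 it was −0.96 (adjusted p = 0.0541). Slc25a36, the other pyrimidine nucleotide carrier, had 12.7 to 47.6 CPM in GEM-BCC and 78.8, 13.6, 97.9 and 5.57 CPM in TP1 to TP4. Its log2 fold change was 0.56 (SE 0.53, edgeR adjusted p = 0.472), a mean over opposite directions. It was 1.41 without TP2 and TP4 (adjusted p = 0.0176) and −1.78 without TP1 and TP3 (adjusted p = 0.00875).

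Slc25a10, the dicarboxylate carrier that exchanges malate or succinate for phosphate, had 31.6 to 58.9 CPM in GEM-BCC (median 41.8) and 54.2, 98.2, 44.2 and 117 CPM in TP1 to TP4. TP2 and TP4 lay above every GEM-BCC tumor, and TP1 and TP3 within their range. Its log2 fold change was 0.83 (SE 0.26, edgeR adjusted p = 0.0325). It no longer passed the adjusted threshold without any 1 of GEM2, GEM4, GEM5, GEM7, GEM9, TP2 or TP4 (0.52 and adjusted p = 0.176 without TP4), and the fold was 0.16 (adjusted p = 0.705) without TP2 and TP4. Slc25a25, a calcium-regulated carrier of ATP-magnesium and phosphate, had 10.3 to 21.4 CPM in GEM-BCC (median 15.1) and 19.3, 29, 19 and 35.4 CPM in TP1 to TP4. Again TP2 and TP4 alone lay above the GEM-BCC range. Its log2 fold change was 0.72 (SE 0.24, adjusted p = 0.0474), it no longer passed without any 1 of 9 tumors (each except GEM1, GEM4, TP1 and TP3), and the fold was 0.30 (adjusted p = 0.493) without TP2 and TP4.

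The carriers that supply oxidative phosphorylation included Slc25a5, the member of highest mean level per kilobase in both models. This main ADP/ATP carrier of dividing cells had 320 to 563 CPM in GEM-BCC and 541, 782, 494 and 574 CPM in TP1 to TP4 (log2 fold change 0.44, SE 0.19, edgeR adjusted p = 0.122). Slc25a4, the ADP/ATP carrier best known from heart and muscle, had 185 to 320 CPM and 351, 321, 345 and 248 CPM (0.53, SE 0.18, adjusted p = 0.0511). The mitochondrial phosphate carrier Slc25a3 had 143 to 293 CPM and 229, 347, 211 and 364 CPM (0.45, SE 0.22, adjusted p = 0.155). TP2 and TP4 lay above every GEM-BCC tumor for Slc25a5 and Slc25a3, and TP1, TP2 and TP3 did so for Slc25a4. With the GC trend removed, Slc25a5 (0.79, adjusted p = 0.0163) and Slc25a4 (0.52, adjusted p = 0.0306) passed the threshold.

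The 9 nucleotide and phosphate carriers together summed to 1002 ± 120 CPM in GEM-BCC (n = 9) and 1353 ± 140 CPM in Tp-BCC (n = 4). Of the 8 tested, 1 rose and 1 fell, beside 11.1% and 8.35% of all genes. The calcium-regulated ATP-magnesium carriers other than Slc25a25 had means of 29 ± 9.31 and 35.8 ± 8.83 CPM (Slc25a23) and of 42.2 ± 5.21 and 36.8 ± 26.7 CPM (Slc25a24) in GEM-BCC and Tp-BCC. Slc25a31, an ADP/ATP carrier of the testis, had at most 5 counts in any tumor and was not tested. Slc25a41 had 2 to 6 counts in GEM-BCC and no value in Tp-BCC.

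Carriers of tricarboxylic acid cycle intermediates were led by Slc25a11, the oxoglutarate-malate carrier of the malate-aspartate shuttle. It had 95.9 to 138 CPM in GEM-BCC and 83.2, 144, 73.6 and 146 CPM in TP1 to TP4, and TP1 and TP3 lay below and TP2 and TP4 above all GEM-BCC tumors (log2 fold change 0.03, SE 0.21, edgeR adjusted p = 0.925). The citrate carrier Slc25a1, which exports citrate for lipid synthesis, had 46.9 to 97.7 CPM and 47, 92.4, 45.3 and 112 CPM (0.07, SE 0.27, adjusted p = 0.878), with the same pairs low and high. The direction of both was negative when the GC trend was removed (−0.20 and −0.28) and when library size alone was used for scaling (−0.07 and −0.05). Slc25a21, the oxodicarboxylate carrier, had a count of 0 in every GEM-BCC tumor and no value in Tp-BCC.

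Among 8 tested amino acid carriers, 0 passed the edgeR threshold, against 19.4% of all genes. With the GC trend removed Slc25a12 alone passed (0.98, adjusted p = 0.00446), where 28.4% of all genes did. Slc25a12 and Slc25a13 encode the aspartate-glutamate carriers and had 28.8 ± 5.34 and 14.4 ± 2.33 CPM in GEM-BCC against 41.1 ± 10.1 and 10.5 ± 3.89 CPM in Tp-BCC. Slc25a22, a glutamate carrier and the best expressed of the group by CPM, had 35.7 to 64.6 CPM in GEM-BCC and 50.2, 71.6, 48.3 and 97 CPM in TP1 to TP4 (log2 fold change 0.44, SE 0.21, adjusted p = 0.146). Its relative Slc25a18 was barely expressed, with 2 to 53 counts per GEM-BCC tumor and no more than 5 per Tp-BCC tumor (−1.83, SE 0.80, adjusted p = 0.121).

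The remaining amino acid carriers that were tested did not pass the edgeR threshold with all tumors. Without TP1 and TP3, Slc25a44 (0.94, adjusted p = 0.0151) and Slc25a38 (0.57, adjusted p = 0.0317) were higher, as 19.1% of all genes were. The ornithine carrier Slc25a15 had 27.3 ± 4.81 CPM in GEM-BCC and 22.5 ± 7.14 in Tp-BCC, and Slc25a38, which imports glycine for heme synthesis, 22.7 ± 2.2 and 27.4 ± 8.08 CPM. Slc25a44, a carrier of branched-chain amino acids, had 40.9 ± 12.9 and 59.5 ± 21.7 CPM, and the basic amino acid carrier Slc25a29 had 6.34 ± 1.47 and 5.77 ± 2.82 CPM. Another ornithine carrier gene, Slc25a2, had at most 12 counts in any tumor and was not tested.

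The iron carriers, mitoferrin 1 (Slc25a37) and mitoferrin 2 (Slc25a28), deliver iron for heme and iron-sulfur clusters. Slc25a37 had 32.1 to 59.7 CPM in GEM-BCC and 58.2, 46.3, 68.1 and 27.3 CPM in TP1 to TP4 (log2 fold change 0.10, SE 0.24, edgeR adjusted p = 0.788). Slc25a28 had 21.5 to 33.8 CPM and 27.3, 46.6, 27.2 and 49.9 CPM (0.42, SE 0.21, adjusted p = 0.163). TP4 was the lowest tumor of all for the former and the highest for the latter. The transcripts of Slc25a37 share 6.11% of their 100-base words with those of Gm16867, which is not among the genes of the table. Whether this has a part in the counts of Slc25a37 was not tested.

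The cofactor and acylcarnitine carriers had the closest sums, 261 ± 14.4 CPM in GEM-BCC and 261 ± 24.8 CPM in Tp-BCC. The NAD carrier Slc25a51 led them with 71.9 to 123 CPM in GEM-BCC and 78.2, 116, 76.1 and 95 CPM in TP1 to TP4, wholly within that range (log2 fold change −0.16, SE 0.19, edgeR adjusted p = 0.587). The peroxisomal cofactor carrier Slc25a17 had 52.3 to 77.6 CPM and 66.3, 57.3, 60 and 46.8 CPM (−0.07, SE 0.17, adjusted p = 0.789). Slc25a20, the carnitine-acylcarnitine carrier of fatty acid oxidation, had nearly equal means of 30.5 ± 2.97 and 30.3 ± 7.61 CPM.

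The S-adenosylmethionine carrier Slc25a26 had 4.87 ± 1.34 CPM in GEM-BCC and 3.63 ± 0.632 in Tp-BCC, and the coenzyme A carrier Slc25a42 had 26.3 ± 8.22 and 38.4 ± 7.35 CPM. Slc25a16 and the folate carrier Slc25a32 varied widely among Tp-BCC tumors. Slc25a16 had 10.4 to 15.3 CPM in GEM-BCC and 15.1, 6.36, 14.6 and 1.86 CPM in TP1 to TP4, and Slc25a32 8.09 to 15.6 CPM and 21.9, 8.87, 29.3 and 4.57 CPM. Slc25a32 passed the threshold with the GC trend removed (0.62, adjusted p = 0.0416).

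**Figure D4:**
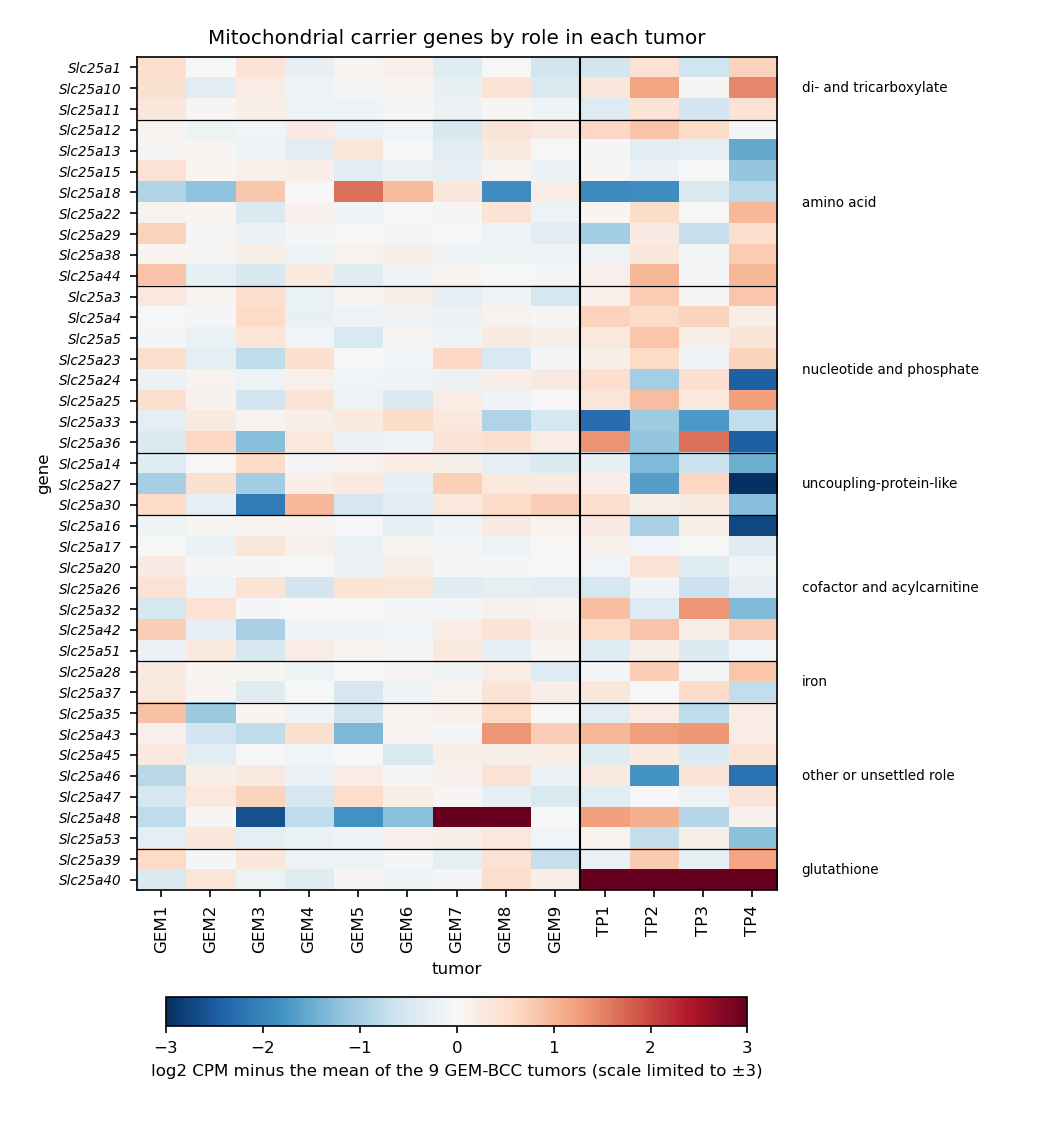
Log2 CPM of 40 of the 41 tested members (rows, grouped by role) in each tumor (columns) minus the gene's mean over 9 GEM-BCC tumors, with the color scale limited to ±3. Slc25a40 is beyond the scale in all 4 Tp-BCC tumors, Slc25a48 is high in GEM7 and GEM8, and several members are low in TP2 and TP4 only.

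Of the 3 uncoupling-protein-like carriers, Slc25a27 was the best expressed by CPM. It had 10.5 to 35.4 CPM in GEM-BCC and 24.7, 6.75, 33.2 and 2.5 CPM in TP1 to TP4 (log2 fold change −0.46, SE 0.51, edgeR adjusted p = 0.546). Slc25a14 had 5.24 to 10.6 CPM and 5.89, 2.76, 4.49 and 2.5 CPM (−0.88, SE 0.31, adjusted p = 0.0566), with 3 of 4 Tp-BCC tumors below the GEM-BCC range, and DESeq2 put it past the threshold (adjusted p = 0.012). Slc25a30 had 6.51 ± 3.15 and 5.84 ± 2.46 CPM.

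Members of other or unsettled role included Slc25a45, with 41 to 68.6 CPM in GEM-BCC and 43.7, 69.2, 42.3 and 75.2 CPM in TP1 to TP4 (log2 fold change 0.02, SE 0.21, edgeR adjusted p = 0.952). Slc25a46, an outer membrane protein with a part in mitochondrial fission, had 18.7 to 45.1 CPM and 40.7, 9.64, 43.9 and 7.07 CPM. Slc25a35, Slc25a43, Slc25a47 and Slc25a53 had means of 2.23 to 8.57 CPM in GEM-BCC and 1.83 to 7.39 CPM in Tp-BCC, and 0 of them passed the threshold. Slc25a34 had at most 3 counts in any tumor and was not tested, and Slc25a54 had no value in any tumor.

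Slc25a48 differed among GEM-BCC tumors more than between models. It had 221 counts in GEM7 and 135 in GEM8, both from 1 mouse, against 0 to 12 in the remaining tumors of that model and 3 to 17 among the Tp-BCC tumors. In CPM these were 7.03 and 4.31 against no more than 0.4 in the other GEM-BCC tumors and 1 in Tp-BCC. Its SD over GEM-BCC tumors, 2.20 on the log2 CPM scale, was the largest of the tested members, whose median was 0.31 without Slc25a40.

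The Tp-BCC tumors split into pairs along the GC content of transcripts, over all genes as among the members. Over all genes, log2 CPM, centered on each gene's mean, rose with GC content in TP2 and TP4 (Spearman rho across genes 0.594 and 0.591) and fell with it in TP1 and TP3 (−0.389 and −0.473). Among the tested members, the difference between the means of TP2 and TP4 and of TP1 and TP3 had a Pearson r of 0.772 with GC content (Spearman rho 0.761, n = 41 genes, which share the 4 libraries and are not independent). Over 14095 tested genes the Spearman rho was 0.79. The pairs were set after the data were seen. All 5 members under 45% GC were lower in TP2 and TP4, by a median of −2.24 on the log2 scale, beside −1.81 for all tested genes under 45% GC. The 26 members at or above 50% GC had a median of 0.67, beside 0.70 for all such genes.

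Slc25a36, at 38.8% GC, had the largest such difference among the members, −3.32, followed by Slc25a27 (50.2% GC, −2.77), Slc25a46 (40.7% GC, −2.34) and Slc25a24 (42.5% GC, −2.24), genes chosen here after their values were seen. Slc25a40, at 39.7% GC, differed by −1.81 between the pairs. Its SD over the Tp-BCC tumors was 1.11 on the log2 CPM scale and 0.64 after the GC trend was removed, and its log2 fold change was then 6.12. It was 6.42 with TP1 and TP3 alone and 4.68 with TP2 and TP4 alone, so Slc25a40 was high in both pairs. The median SD of the other members over Tp-BCC tumors fell from 0.53 to 0.32 on removal of the trend, and that of all tested genes from 0.58 to 0.36.

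**Figure D5:**
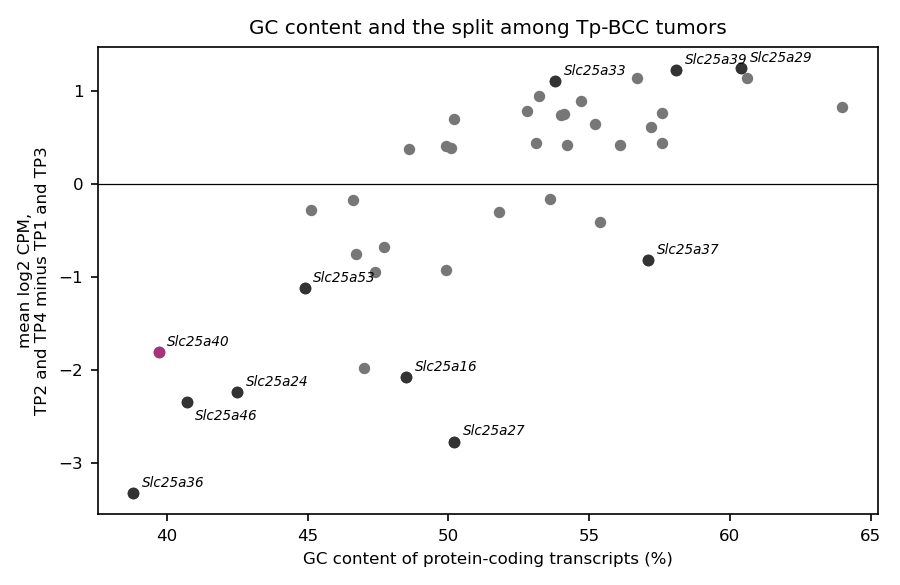
GC content of the protein-coding transcripts of 40 of the 41 tested members (median per gene, GENCODE vM21) against the difference in mean log2 CPM between TP2 and TP4 and TP1 and TP3, with some genes named and Slc25a40 in purple. AT-rich members lie low, with Slc25a36 at −3.32, and most GC-rich members lie above 0.

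The count of members past the threshold followed the choice of tumors and the GC trend. With the trend removed, 6 of the 40 were higher (15.1% of all genes) and 1 lower (13.3%), together 17.5% against 28.4% of all genes, the additions being Slc25a4, Slc25a5, Slc25a12 and Slc25a32. Without TP2 and TP4, 3 were higher (5.87% of all genes) and 1 lower (4.51%), together 10% against 10.4%, and Slc25a33 was called at −2.08 (adjusted p = 0.01). Without TP1 and TP3, 9 were higher (19.1% of all genes) and 6 lower (23.8%), together 37.5% against 42.9%, and Slc25a46 (−2.04, adjusted p = 0.000444) and Slc25a27 (−2.31, adjusted p = 0.00394) were called. Slc25a36 passed in opposite directions, at 1.41 with TP1 and TP3 alone (adjusted p = 0.0176) and −1.78 with TP2 and TP4 alone (adjusted p = 0.00875).

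Genes that work with the carriers were compared in lists of companion genes, to place Slc25a40 beside its pathway. Over 75 tested genes, 8 were higher in Tp-BCC and 0 lower at an edgeR adjusted p under 0.05 (10.7%, against 19.4% of all genes), and 0 were called. The split was 10 higher and 2 lower with DESeq2. With the GC trend removed it was 15 higher and 2 lower, beside 15.1% and 13.3% of all genes. Without TP1 and TP3 it was 18 higher and 4 lower, beside 19.1% and 23.8% of all genes. In the list of glutathione synthesis and use, 2 of 20 (10%) were higher, near the 11.1% of all genes. With the GC trend removed this list had 5 of 20 higher and 2 lower, beside the same 15.1% and 13.3% of all genes. The 2 were Txnrd2 (−1.22, adjusted p = 0.0271), a mitochondrial thioredoxin reductase, and the glutathione peroxidase gene Gpx4 (−0.93, adjusted p = 0.0173). Gclm, the modifier subunit of the rate-limiting enzyme of glutathione synthesis, had 30.7 ± 4.34 CPM in GEM-BCC and 50.7 ± 6.49 CPM in Tp-BCC without overlap, as 5.5% of all genes were higher (log2 fold change 0.72, SE 0.17, adjusted p = 0.00941). Gsto1, a glutathione transferase, had 16.5 ± 8.45 and 44.2 ± 10.4 CPM (1.42, SE 0.35, adjusted p = 0.0121). Next by adjusted p stood the glutathione peroxidase gene Gpx1 (0.76, SE 0.26, adjusted p = 0.056) and the mitochondrial thioredoxin gene Txn2 (0.62, SE 0.23, adjusted p = 0.0677). The catalytic subunit Gclc (−0.23, SE 0.41), glutathione synthetase Gss (0.02, SE 0.23), glutathione reductase Gsr (0.31, SE 0.32) and Afg3l2 (−0.22, SE 0.22), a mitochondrial protease that degrades SLC25A39, did not pass the threshold.

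Of 23 genes of iron-sulfur cluster and heme synthesis, 1 was higher (4.35%, against 11.1% of all genes). This was Alas1, the first enzyme of heme synthesis (0.68, SE 0.19, edgeR adjusted p = 0.0228), which no longer passed without TP2 or without TP4. Of 16 genes for the import and insertion of carriers, 3 were higher (18.8%, against 11.1% of all genes). They were the outer membrane pore gene Tomm40 (0.89, SE 0.25, adjusted p = 0.0216), the small chaperone gene Timm8a1 (0.74, SE 0.23, adjusted p = 0.0374) and Tomm6 (0.86, SE 0.28, adjusted p = 0.0399). Tomm40 no longer passed without TP2 or without TP4, Timm8a1 without any 1 of 9 tumors (GEM1, GEM4 to GEM9, TP1 or TP4) and Tomm6 likewise (GEM2, GEM4 to GEM9, TP2 or TP4). Timm22, the insertase through which carriers enter the inner membrane, had 34.4 ± 9.34 and 33.2 ± 12.8 CPM. Of 12 genes taken as a gauge of mitochondrial content, 1 was higher (8.33%, against 11.1% of all genes). This was Phb2, a prohibitin (0.79, SE 0.24, adjusted p = 0.0333), which did not pass without any 1 of GEM4, GEM5, GEM6, GEM7, GEM9, TP2 or TP4. The list's median was 0.24 on the log2 scale. Of the 4 tested carrier genes under other symbols, 1 was higher (25%, against 11.1% of all genes). This was Mtch2, an outer membrane insertase (0.62, SE 0.15, adjusted p = 0.0115, and 0.0534 without TP2). It had 70.5 ± 6.58 CPM in GEM-BCC and 108 ± 14.4 CPM in Tp-BCC without overlap, as 5.5% of all genes were higher. Ucp2 had 2541 ± 775 and 3024 ± 1580 CPM (0.25, SE 0.31, adjusted p = 0.598).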

How the data were processed

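The authors cleaned the reads with SOAPnuke, aligned them with Bowtie2 2.3.4.3 to mouse transcripts of GRCm39 and quantified them with RSEM 1.3.1. The deposited values are expected counts per gene, neither normalized nor rounded. Counts were rounded here, and genes lacking a value in any tumor were left out. Testing required 10 counts or more in no fewer than 4 tumors. Models were compared with edgeR 4.0.16 in R 4.3.3 (TMM, robust quasi-likelihood F test, 2-sided, no covariate), with Benjamini-Hochberg adjustment over all 14390 tested genes, and calls required adjusted p < 0.05 with a log2 fold change beyond ±2. CPM use TMM factors, log2 CPM a prior count of 2, and the SE is the log2 fold change over the square root of F. Replicates are separate tumors, 4 of them in 2 mice.

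Alternatives were DESeq2 1.42.0 and its size factors, library size, other filters, dispersions that were not robust, counts per mouse, missing values set to 0, each tumor left out, a replicate block, a lower fold threshold and removal of the GC trend (lowess, span 0.3, on GENCODE vM21 transcripts). The fits without TP2 and TP4 and without TP1 and TP3 were added after seeing the data. The members and the gene lists were chosen with earlier results of these data known. Named were Slc25a40, Slc25a39, members past the threshold, the 10 most abundant, the highest of each role, up to 5 neighbors a side, the 5 genes most correlated with Slc25a40 and up to 4 genes per companion list. Other members were added to account for the whole family, of which 1 enters the counts and sums but is not reported here, and Gclc, Gss, Gsr, Afg3l2, Timm22 and Ucp2 for their roles, after their values were seen. The fit was tested on simulated data. RefSeq and GENCODE vM21 annotate GRCm38 and served only for names, order, GC content, length and the promoter sequence.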

Additional observations from a re-analysis of the deposited data

Results flagged for a closer look

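In all, 3 values of members stood apart from the rest of their group by Dixon's criterion, among 84 sets of 4 or 9 tumors examined, of which chance sets apart about 1 in 20. Slc25a4 had 320 CPM in GEM3, against 185 to 231 CPM in the other GEM-BCC tumors. Slc25a29 had 10.1 CPM in GEM1, against 4.95 to 6.32 CPM, and Slc25a44 had 71.3 CPM in GEM1, against 28.1 to 48.4 CPM. GEM1 was also the GEM-BCC tumor in which levels rose with GC content (Spearman rho across genes 0.365, against −0.312 to −0.15 in the others), and the part of this in both values was not tested.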

How the results depend on the processing

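The log2 fold change of Slc25a40 stayed between 4.68 (without TP1 and TP3) and 6.42 (without TP2 and TP4), and between 5.50 and 6.07 with 1 tumor left out. Of the 40 other members, 3 passed the adjusted threshold, against 5 with DESeq2, 7 with the GC trend removed, 15 without TP1 and TP3 and 1 to 4 with 1 tumor left out. In all 0 were called, but 1 was without TP2 and TP4, 2 were without TP1 and TP3 and 1 was at an absolute log2 fold change above 1. Of the companion genes 8 passed, against 17 with the GC trend removed, 4 without TP2 and TP4, 22 without TP1 and TP3 and 3 to 11 with 1 tumor left out. Of all genes 19.4% passed, 28.4% with the GC trend removed, 10.4% without TP2 and TP4 and 42.9% without TP1 and TP3. Of the neighbors 0 passed, against 2 with DESeq2, 2 with the GC trend removed, 1 without TP2 and TP4, 4 without TP1 and TP3 and 0 to 1 with 1 tumor left out.

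Replicate numbers name different mice and do not pair the samples. Deviations of same-numbered tumors correlated at −0.381 to −0.101. With a replicate block 0 members and 0 companion genes passed, and log2 fold changes turned for Slc25a1 (−0.18), Slc25a11 (−0.13) and Steap1 (0.05).

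Other changes of direction were in genes that did not pass the threshold in the fit reported. With library size alone these were Slc25a1 (−0.05), Slc25a11 (−0.07) and Slc25a45 (−0.08). With the GC trend removed they were Slc25a1 (−0.28), Slc25a11 (−0.20), Slc25a17 (0.52), Slc25a37 (0.00) and Slc25a45 (−0.17). Without TP2 and TP4 they were Slc25a1 (−0.62), Slc25a11 (−0.48), Slc25a17 (0.05), Slc25a27 (0.32), Slc25a39 (−0.28), Slc25a45 (−0.40) and Crot (0.56). Without TP1 and TP3 they were Slc25a37 (−0.33), Slc25a51 (0.05), Dbf4 (−0.40), Abcb1a (−1.28) and Abcb1b (−0.43). With 1 tumor left out the range was −0.26 to 0.25 for Slc25a1, −0.18 to 0.19 for Slc25a11, −0.08 to 0.27 for Slc25a37, −0.18 to 0.15 for Slc25a45, −0.01 to 0.79 for Abcb1a and −0.65 to 0.08 for Crot. The cause was not tested. Over the values of 33 named genes under the alternatives, 693 kept direction and side of the threshold, 36 turned, 22 newly passed and 72 no longer did.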
